A study of Mus musculus with 11 samples.

Results

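The Sp transcription factor family was followed through the loss of its own member Sp3 in fetal lung mesenchyme. Members were chosen by symbol, as the rows of the count tables named Sp1 to Sp8, which gave 8 of 24062 genes. RNA-seq was performed on primary mesenchymal cells from embryonic day 15 mouse lungs, which were freed by collagenase, selected by rapid adhesion to plastic and passaged 2 times in culture before lysis. Embryos came from matings of Sp3+/- mice, and the sources name no Cre or tissue-specific allele. The labels name 4 libraries as WT, carrying 2 intact Sp3 alleles, 4 as Sp3+/-, with 1 intact allele, and 3 as Sp3-/-, with none. No treatment was given. The strain and the part of Sp3 that the null allele lacks are not given in the sources used here, and the labels do not say whether a library came from a single embryo. P-values therefore measure the spread between these libraries, which may be partly technical. Libraries are named here by the numbers of their titles, such as 697-5.

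Sp proteins bind GC-rich boxes in promoters through zinc fingers near the C terminus. Sp1 is a broadly expressed activator, and Sp3, its closest relative in structure and DNA binding, can activate or repress. Sp2 and Sp4 complete the broadly expressed group, whereas Sp5 to Sp8 are restricted to particular tissues, Sp7 (osterix) to bone-forming cells. Because members compete for the same boxes, the level of each remaining member is of interest when Sp3 is removed.

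The study asked how Sp3 shapes gene expression in these cells. The values below address what the Sp3 alleles left of the Sp3 transcript, and what the other members measured in the same libraries.

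GC boxes were also looked for before the Sp genes themselves. RefSeq promoter windows on GRCm38.p6, the 250 bases before each annotated start, were found for 6 of the 8 members, 11 windows in all. The GC box core was present in 6 of the 11 and absent from 5, which were 2 of the 3 Sp2 windows, the Sp5 window and 2 of the 3 Sp8 windows. The 3 windows printed here belong to the deleted gene, to its closest paralog and to Sp4, which shares with Sp1 the highest number of matches outside Sp3. They read 5′ to 3′ on the strand of the gene. Capitals mark the GC box core, GGGCGG, or its reverse complement.

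Sp1, chr15:102406066-102406315, plus strand: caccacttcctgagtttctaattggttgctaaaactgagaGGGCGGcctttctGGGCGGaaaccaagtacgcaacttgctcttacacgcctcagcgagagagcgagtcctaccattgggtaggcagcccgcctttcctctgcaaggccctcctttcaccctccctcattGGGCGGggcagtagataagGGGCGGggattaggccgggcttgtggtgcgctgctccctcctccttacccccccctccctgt

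Sp3, chr2:72980447-72980696, minus strand: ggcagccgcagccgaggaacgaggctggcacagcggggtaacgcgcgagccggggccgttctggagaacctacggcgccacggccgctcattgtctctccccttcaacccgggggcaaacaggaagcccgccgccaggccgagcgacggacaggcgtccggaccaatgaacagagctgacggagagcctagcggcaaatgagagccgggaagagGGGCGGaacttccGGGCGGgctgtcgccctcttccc

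Sp4, chr12:118301441-118301690, minus strand: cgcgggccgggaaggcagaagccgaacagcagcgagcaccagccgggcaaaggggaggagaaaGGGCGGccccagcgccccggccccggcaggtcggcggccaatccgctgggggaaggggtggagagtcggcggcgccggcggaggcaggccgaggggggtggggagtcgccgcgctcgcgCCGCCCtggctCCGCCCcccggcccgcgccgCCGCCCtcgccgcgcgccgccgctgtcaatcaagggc

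The Sp1 window held 4 cores, all on the gene's strand, at 210, 197, 81 and 62 bases before the start. The longer classical GC box, GGGGCGGGG, contained the nearest of them. In the Sp3 window, which precedes the most upstream start, 2 cores lay at 36 and 23 bases before the start. Sp4 held 4 cores, 1 on its own strand at 187 bases and 3 on the opposite strand at 68, 57 and 37 bases before the start. A second Sp3 window, before a start inside the gene, held 5 cores on the opposite strand. A classical GC box at 101 bases before that start contained 1 of them. Searched on both strands, the core was present in 32.7% of 32851 promoter windows of the same length, at least 2 cores in 16.7%, at least 4 in 4.09% and the classical box in 10.4%. Each classical box match contains a core match. None of the members' windows held the GT box GGTGTGGGG, present in 0.721% of all windows. A match describes the letters of the window only.

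Library totals of reads on genes ran from 14113788 to 35351093 in WT, 13842791 to 59297495 in Sp3+/- and 9849111 to 45630738 in Sp3-/- libraries. At these depths 3 reads equal between 0.0506 and 0.305 CPM (reads scaled to the size of the library), and the number of libraries limits the precision of each comparison. All 10 mesenchyme markers exceeded 3 reads in at least 1 library of each genotype. Their sum was 13160 to 22280 CPM in WT (median 21460), 15160 to 22240 in Sp3+/- (median 21740) and 7288 to 19040 in Sp3-/- libraries (median 13180). By edgeR, 3 of the 10 were called lower in Sp3-/- against WT and 5 against Sp3+/-, beside 9.77% and 12.5% of all genes. Macrophage markers summed to 525.7 to 2821 CPM in WT, 320.7 to 2694 in Sp3+/- and 2655 to 9847 in Sp3-/- libraries. Mesothelium markers summed to 696.8 to 1666, 1354 to 2391 and 2080 to 5617 CPM. Epithelium markers summed to 15.1 to 35.3, 21.7 to 31.4 and 47.9 to 153 CPM. Krt18 alone had 12.3 to 25.6 CPM in WT and 37.4 to 103 in Sp3-/- libraries. Cdh1 and Epcam were low but also higher in every Sp3-/- than in any WT library. The lung epithelium genes Sftpc and Nkx2-1 reached 4.56 and 1.175 CPM in WT but at most 0.1025 and 0.139 in Sp3-/- libraries. Called higher against WT and against Sp3+/- were 3 and 7 of 7 tested macrophage, 3 and 2 of 6 mesothelium and 3 and 4 of 7 epithelium markers. None of these was called lower, and 8.76% and 13% of all genes were called higher. The part of these marker differences in the results was not tested. In bulk RNA, fewer cells of a type and less RNA per cell cannot be told apart. A number ends the titles of 6 libraries, 3 WT and 3 Sp3+/-. It is missing from those of WT 468-4, Sp3+/- 697-4 and all 3 Sp3-/- libraries. This suffix is 2 for Sp3+/- 468-3 and 3 for the rest. In fits with the suffix as a covariate, none, 2 and 3 were separate levels. Library 468-3, alone at its level, did not inform the genotype differences there. What this suffix means is not given in the sources used here, and the file of 697-4 carries one in its name.

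The 8 members separated into 5 with measurable transcripts and 3 near the limit of detection. Per length of exon, Sp1 was the most abundant in WT cells, at 16.1 ± 1.58 RPKM (CPM per kilobase of exon; s.d., n = 4). Sp3 followed at 11.6 ± 2.69 RPKM, then Sp2 at 4.56 ± 0.589, Sp4 at 2.29 ± 0.574 and Sp6 at 1.15 ± 0.485 RPKM. Neighbors in this order did not overlap between libraries, but the margins between Sp1 and Sp3 (lowest Sp1 library 14.9 RPKM, highest Sp3 library 14.7) and between Sp4 and Sp6 (1.87 and 1.85) were narrow. The first of these depends on the gene model. With the longest transcript in place of the union of exons, Sp3 had 17.8 and Sp1 17.1 RPKM in WT cells.

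Sp5, a factor of early embryonic patterning, was counted with 12, 0, 1 and 1 reads in WT 468-4, 685-2, 697-1 and 697-3. It had 0, 3, 4 and 0 reads in Sp3+/- 468-3, 685-5, 685-7 and 697-4, and 3, 3 and 0 in Sp3-/- 685-1, 697-2 and 697-5. Sp8, which acts in limb and brain development, had 1 read in 4 libraries and 0 in the other 7. Neither passed the filter of more than 1 CPM in at least 1 library, so 6 of the 8 members were tested in each comparison. Sp7 is among the 6 only because of Sp3-/- 697-5.

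**Figure D1:**
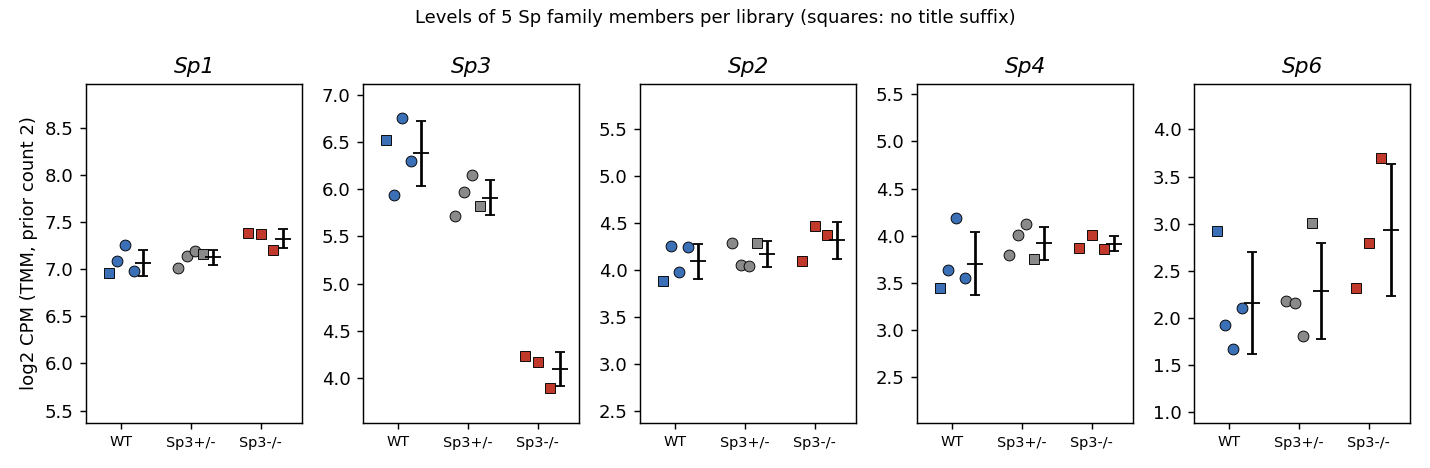
Levels of the 5 measurable members in each library, in log2 CPM (TMM scaling, prior count 2), on axes of equal span. Points are libraries by genotype (WT, Sp3+/-, Sp3-/-), squares are libraries without a title suffix, and bars show the mean ± s.d. (n = 4, 4 and 3). Sp3 had a mean of 6.38 in WT, 5.91 in Sp3+/- and 4.10 in Sp3-/- libraries, and the squares sit above the circles for Sp6.

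Sp3 transcripts were reduced but not absent in Sp3-/- cells. Sp3 lies on chromosome 2 (chr2:72936430-72980446, GRCm38.p6). In WT libraries 468-4, 697-1 and 697-3 it measured 92.2, 108 and 78.7 CPM, and in the library labelled WT 685-2 it measured 61.4 CPM. The Sp3+/- libraries 468-3, 685-5, 685-7 and 697-4 had 52.5, 62.5, 70.8 and 56.4 CPM. The Sp3-/- libraries 685-1, 697-2 and 697-5 had 18.8, 17.9 and 14.8 CPM. Every Sp3-/- library was below every library of the other genotypes, and the library labelled WT 685-2 lay inside the Sp3+/- range.

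The residual signal in Sp3-/- libraries rested on 674, 810 and 144 reads, all above the count of 3 used as a detection floor. It averaged 20.2% of the WT mean, with 22.1, 21.0 and 17.4% in 685-1, 697-2 and 697-5. By edgeR's quasi-likelihood test, Sp3 fell by 2.30 on the log2 scale against WT (SE 0.21), which left 20.3% of the WT level (95% interval 14.4 to 28.5%; Benjamini-Hochberg adjusted p = 0.00611). Against Sp3+/- cells the ratio was 28.4% (21.3 to 38.0%; edgeR adjusted p = 9.17e-04). Without the library labelled WT 685-2, the ratio to WT was 18.5% (14.1 to 24.3%; edgeR adjusted p = 0.0153). The WT comparison was not called among libraries without a title suffix (log2 fold change -2.43, edgeR adjusted p = 0.293), where a single WT library remained.

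Where in the gene the residual reads lay was not tested, since the tables hold 1 count per gene. The RNA gene Sp3os (chr2:72979432-72989249) overlaps the 5′ end of Sp3 and was counted as its own row. Sp3os had 24 to 129 reads per library. Its log2 fold change in Sp3-/- against WT was -0.22 (95% interval -0.84 to 0.40; edgeR adjusted p = 0.574). The strand setting of the counting is not given in the sources used here, so reads of the shared stretch cannot be told apart by strand.

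In heterozygotes, the mean Sp3 level lay between those of the other genotypes and closer to WT. Sp3+/- libraries averaged 60.5 ± 8.0 CPM (s.d., n = 4) against 85.0 ± 19.7 in WT, or 71.2% of the WT mean. The midpoint between WT and Sp3-/- cells was 51.1 CPM, 60.1% of WT, and all 4 Sp3+/- libraries were above it. Without the library labelled WT 685-2 the midpoint was 55.0 CPM, with 3 Sp3+/- libraries above and 468-3 below it, an alternative chosen after seeing the data. Relative to the WT mean, 468-3, 685-5, 685-7 and 697-4 stood at 61.7, 73.5, 83.3 and 66.3%.

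The fitted ratio of Sp3+/- to WT was 71.2% (95% interval 55.4 to 91.6%; log2 fold change -0.49, SE 0.16). Its edgeR p was 0.0131 before and 0.9999 after adjustment over 14130 genes, so Sp3 was not called. With the library labelled WT 685-2 left out, the ratio was 65.3% (52.5 to 81.0%; edgeR adjusted p = 0.9999). Within first numbers of the titles, the log2 CPM difference of Sp3+/- minus WT was -0.81 among 468 libraries and -0.71 among 697 libraries, but 0.12 among 685 libraries, whose only WT library is 685-2. The Sp3-/- minus WT difference was -1.71 among 685 and -2.50 among 697 libraries.

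The comparison of Sp3-/- with WT called 18.5% of 14025 genes at an adjusted p below 0.05, 8.76% higher and 9.77% lower. Of the 6 members tested, 0 were called higher and 1, Sp3, was called lower. Sp3-/- against Sp3+/- called 25.5% of 14130 genes (13% higher, 12.5% lower), and again 0 members higher and Sp3 lower. Sp3+/- against WT called 0% of genes and 0 members by edgeR, with 246 genes at an unadjusted p below 0.05. DESeq2 and limma-voom also called 0 genes there. The 3 comparisons share libraries, so their values are not independent.

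**Figure D2:**
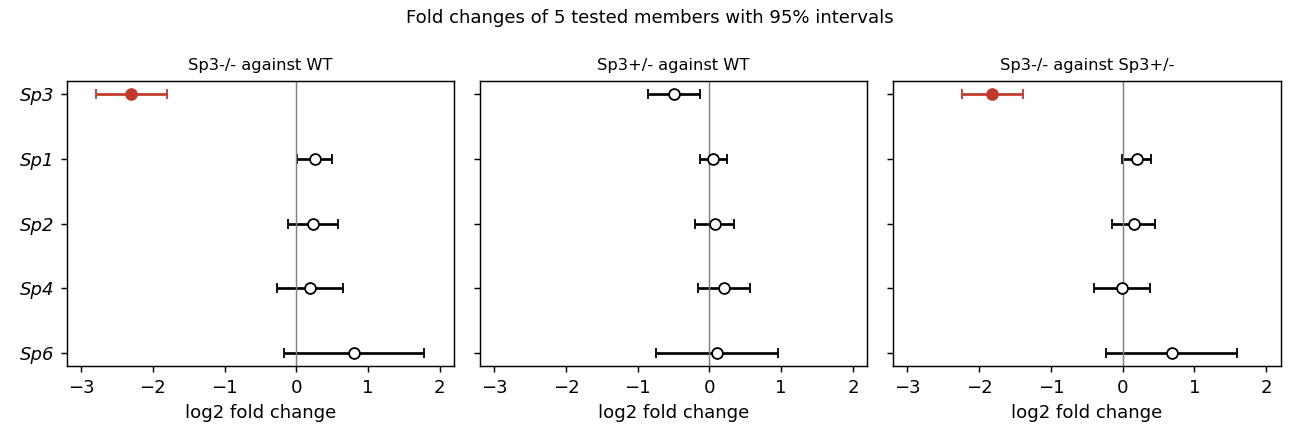
Log2 fold changes of 5 tested members (all but Sp7) with 95% intervals in the 3 comparisons, from edgeR. Filled red points have an adjusted p below 0.05. Sp3 was called in both comparisons with Sp3-/- cells (-2.30 and -1.82), while the point for Sp1 lies at 0.26 in Sp3-/- against WT and the intervals of Sp6 are the widest.

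Sp1, the activator that shares Sp3's sites, did not pass the test in Sp3-/- cells. It measured 124, 136, 153 and 126 CPM in WT 468-4, 685-2, 697-1 and 697-3. In Sp3+/- 468-3, 685-5, 685-7 and 697-4 it measured 129, 141, 146 and 143 CPM. Sp3-/- 685-1, 697-2 and 697-5 had 167, 166 and 148 CPM. The Sp3-/- libraries were above all Sp3+/- libraries, and 697-5 fell below WT 697-1, so that these groups overlapped.

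The fitted level of Sp1 in Sp3-/- cells was 119% of WT (95% interval 101 to 142%). The edgeR p was 0.0442 before adjustment, and the adjusted p was 0.123. Against Sp3+/- cells it was 115% (99.8 to 132%; edgeR adjusted p = 0.132), and Sp3+/- cells had 104% of WT (91.0 to 118%). Sp1 was not called in any of the alternative fits.

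The share of Sp3 relative to Sp1 was lowest in Sp3-/- libraries. Of the reads on Sp1 and Sp3 together, Sp3 took 42.6% in WT 468-4 (95% Wilson interval 41.5 to 43.7%), 41.4% in 697-1 (40.2 to 42.6%) and 38.5% in 697-3 (37.3 to 39.6%). The library labelled WT 685-2 had 31.1% (29.4 to 32.8%). In Sp3+/- libraries the share was 28.9, 30.8, 32.6 and 28.3%, and in Sp3-/- libraries 10.1, 9.70 and 9.09%. The Sp3-/- shares were below all others, and the library labelled WT 685-2 again fell among the Sp3+/- libraries.

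Means of this share were 38.4 ± 5.16% in WT, 30.2 ± 1.96% in Sp3+/- and 9.64 ± 0.514% in Sp3-/- cells (s.d.). The share was 28.7 percentage points lower in Sp3-/- than in WT cells, 20.5 points lower than in Sp3+/- cells, and 8.22 points lower in Sp3+/- than in WT cells. The 2-sided exact permutation p was 0.0571 for each of the 3 comparisons and 0.0571 after Benjamini-Hochberg adjustment over them. For the comparisons with Sp3-/- cells this is the smallest p that 35 splits allow, and for Sp3+/- against WT 70 splits allow 0.0286. Wilson intervals cover counting error only.

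**Figure D3:**
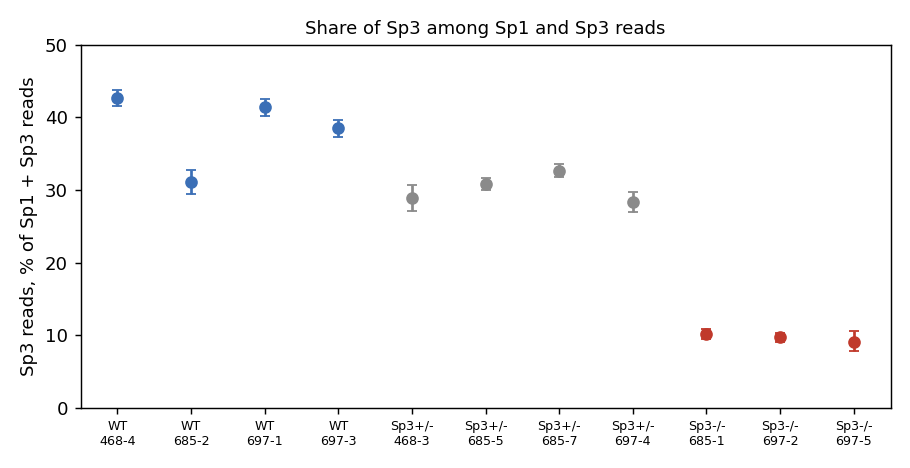
Share of Sp3 among the reads of Sp1 and Sp3 in each library, in percent, with 95% Wilson intervals for counting error. Colors mark WT (blue), Sp3+/- (gray) and Sp3-/- (red). Sp3-/- libraries lie between 9.09 and 10.1%, Sp3+/- libraries between 28.3 and 32.6%, and the library labelled WT 685-2 at 31.1% lies apart from the other WT libraries, between 38.5 and 42.6%.

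Sp2 and Sp4, the other broadly expressed members, did not pass the test in any comparison. Sp2 measured 14.7, 19.0, 15.7 and 18.9 CPM in WT, 19.4, 16.5, 16.4 and 19.5 in Sp3+/-, and 17.1, 22.1 and 20.7 in Sp3-/- libraries (in the order given for Sp1). Sp3-/- 697-2 and 697-5 were above all WT and Sp3+/- libraries, and 685-1 was among them. Its level in Sp3-/- cells was 117% of WT (95% interval 91.9 to 150%; edgeR adjusted p = 0.302). Sp4, best known from neurons, measured 10.8, 12.4, 18.1 and 11.6 CPM in WT, 13.8, 16.0, 17.3 and 13.4 in Sp3+/-, and 14.6, 16.0 and 14.5 in Sp3-/- libraries. WT 697-1 was the highest of all 11, and the genotypes overlapped. Sp4 stood at 114% of WT in Sp3-/- cells (82.8 to 157%; edgeR adjusted p = 0.515) and at 115% in Sp3+/- cells (89.2 to 147%).

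Sp6, a factor of epithelium and tooth development, did not pass the test in any comparison. It measured 7.54, 3.73, 3.13 and 4.23 CPM in WT, 4.45, 4.41, 3.43 and 7.96 in Sp3+/-, and 4.93, 6.86 and 12.9 in Sp3-/- libraries. The genotypes overlapped. The 5 libraries without a suffix in the title, all Sp3-/- libraries among them, had 4.93 to 12.9 CPM. The 6 that carry one had 3.13 to 4.45 CPM. How many of all genes separate by suffix in this way was not counted. The level in Sp3-/- cells was 174% of WT (95% interval 88.7 to 343%; log2 fold change 0.80, edgeR adjusted p = 0.203). With the suffix as a covariate, in a fit on all 11 libraries, the log2 fold change was 0.09. Since no Sp3-/- library carries a suffix, genotype and suffix are largely confounded in that fit. The same 5 libraries had macrophage marker sums of 2655 to 9847 CPM and the other 6 had 320.7 to 778.5 CPM. The part of macrophage RNA in the Sp6 level was not tested.

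Sp7, the osteoblast factor osterix, had few reads in any library. It was counted with 5, 0, 1 and 0 reads in WT, 0, 5, 4 and 1 in Sp3+/-, and 9, 8 and 12 in Sp3-/- libraries. In CPM the Sp3-/- libraries (0.177 to 1.23) were above all others (up to 0.141), and 697-5, the smallest library, was the highest and the only one to bring Sp7 past the filter. No fold change or test of Sp7 is given, since it entered the fits only through a library of the group in which it was highest. The 5 osteoblast markers, Sp7 among them, summed to 15.3 to 18.5 CPM in Sp3-/- and 16.4 to 33.7 CPM in the other libraries. Runx2 made up most of this sum, and the bone matrix genes Bglap and Ibsp were at or under 3 reads in every library. Of 2 further osteoblast genes, chosen after their values were seen, Spp1 measured 609.7 to 2162 CPM in WT, 1194 to 1642 in Sp3+/- and 1301, 4669 and 2589 CPM in Sp3-/- 685-1, 697-2 and 697-5 (edgeR adjusted p = 0.279 against WT), and Dmp1 had 24 reads in Sp3-/- 697-2 and at most 3 in any other library.

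The difference of Sp3 per length exceeded those of the other members together. In Sp3-/- minus WT means, Sp3 dropped by 9.26 RPKM, while Sp1 differed by 3.05, Sp6 by 0.879, Sp2 by 0.764 and Sp4 by 0.309 RPKM, all upward and none of these 4 called. The 8 members together measured 35.8 ± 3.70 RPKM in WT (s.d., n = 4), 33.7 ± 1.76 in Sp3+/- (n = 4) and 31.6 ± 1.00 in Sp3-/- cells (n = 3). Over the union of exons, the WT libraries spanned 32.8 to 41.1 RPKM and the Sp3-/- libraries 30.9 to 32.8 RPKM. The sums nearly met there, but they depend on the gene model. By the longest transcript, the mean of Sp3 was 17.8 RPKM in WT and 3.59 in Sp3-/- cells. Sp1 had 17.1 and 20.3 RPKM, and the sum by that length is not given. No test was made on the sum.

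Over the union of exons, Sp3 no longer stood apart from Sp4 and Sp6 in Sp3-/- cells. There, Sp1 (17.7 to 20.0 RPKM) and Sp2 (4.56 to 5.89 RPKM) led, and Sp3 (2.01 to 2.56 RPKM) overlapped with Sp4 (2.50 to 2.76) and Sp6 (1.21 to 3.17). By the longest transcript, Sp3 in Sp3-/- cells was at 3.59 RPKM (3.09 to 3.93), above Sp4 at 2.59 (2.50 to 2.76) without overlap. Sp6 (1.36 to 3.56) still overlapped with Sp3 by that length. Over the union of exons, Sp3+/- cells had the same order as WT, with Sp3 at 8.26 ± 1.09 RPKM. By the longest transcript, Sp1 (17.7 RPKM) was above Sp3 (12.7 RPKM) in Sp3+/- cells, the reverse of WT.

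**Figure D4:**
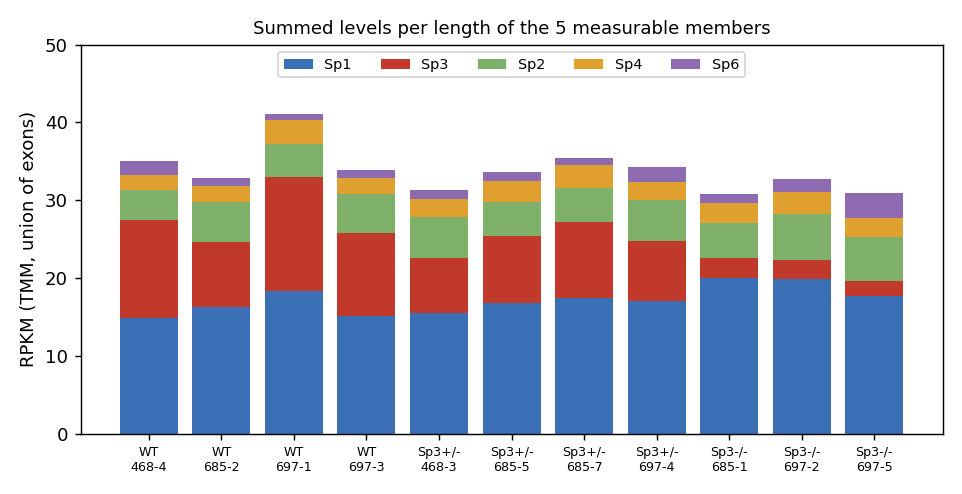
Summed levels of the 5 measurable members per library, in RPKM over the union of exons (TMM scaling). Segments stand for Sp1, Sp3, Sp2, Sp4 and Sp6 from the bottom. The Sp3 segment shrinks from 8.37 to 14.7 RPKM in WT to 2.01 to 2.56 RPKM in Sp3-/- libraries, and WT 697-1 has the tallest column.

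The relatives and partners of the Sp family were read from 5 gene lists. Krüppel-like factors share the zinc finger type and many sites with Sp proteins. Of 17, 14 were tested, and in Sp3-/- against WT 0 were called higher and 3 lower (median log2 fold change -0.18, against -0.00316 for all genes). Of all genes, 8.76% were called higher and 9.77% lower. The called Krüppel-like factors were Klf12 (-2.38, SE 0.62, edgeR adjusted p = 0.0390), Klf8 (-1.79, SE 0.35, adjusted p = 0.0193) and Klf11 (-0.73, SE 0.19, adjusted p = 0.0390). Klf8 had 2.50 to 5.97 CPM in WT and 1.28 to 1.54 CPM in Sp3-/- libraries, without overlap. All 3 were also lower in Sp3-/- than in Sp3+/- cells. With the suffix as a covariate, Klf12 (-1.11, edgeR adjusted p = 0.184) and Klf11 (-0.50, adjusted p = 0.146) were not called. Without the library labelled WT 685-2, 0 members of this list were called in Sp3-/- against WT.

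Among 12 other binders of GC-rich elements, 11 were tested, 1 was called higher and 0 lower (median 0.12). This was Wt1, a zinc finger factor of mesothelium and kidney, at 1.44 (SE 0.20, edgeR adjusted p = 0.00997). Wt1 had 25.4 to 43.1 CPM in WT, 41.2 to 63.3 in Sp3+/- and 81.3 to 121 in Sp3-/- libraries. It also stands among the mesothelium markers, whose sum was higher in each Sp3-/- library than in any WT library, and their part in this difference was not tested. Of 16 Sp partners and modifiers, 15 were tested, 0 were called higher and 2 lower (median 0.01). E2f1, a cell cycle factor that contacts Sp1, had a log2 fold change of -0.43 (SE 0.09, edgeR adjusted p = 0.0252), and the deacetylase Hdac2 one of -0.33 (SE 0.09, adjusted p = 0.0425). Without the library labelled WT 685-2, E2f1 (-0.45, edgeR adjusted p = 0.0583) and Hdac2 (-0.34, adjusted p = 0.0965) were not called, and Wt1 was still called. With the suffix covariate Hdac2 was at -0.19 (edgeR adjusted p = 0.194).

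Of 15 classical GC box targets, all tested, 1 was called higher and 3 lower (median -0.55), and 11 did not pass. The share of all genes called was again 18.5%. The growth factor gene Fgf10 fell by 2.54 on the log2 scale (SE 0.62, edgeR adjusted p = 0.0329) and the fatty acid synthase gene Fasn by 0.87 (SE 0.19, adjusted p = 0.0240). Tgfbr2, a TGF-beta receptor gene, was called higher (0.73, SE 0.11, edgeR adjusted p = 0.0112). The remaining called target, Myc (-0.64, SE 0.15, edgeR adjusted p = 0.0317), is named after its values were seen. Fgf10 measured 38.4, 43.6, 38.6 and 6.96 CPM in WT and 4.73, 4.30 and 7.69 CPM in Sp3-/- libraries, so WT 697-3 lay within the Sp3-/- range. Without the library labelled WT 685-2, 1 target was called higher and 1 lower, and with the suffix covariate neither Fgf10 (-2.43, edgeR adjusted p = 0.0614) nor Fasn (-0.48, adjusted p = 0.0520) was called. Of 10 osteoblast genes of the Sp7 programme, 4 were tested (median -0.44) and 1, Phex, was called lower. Phex passed the filter only through WT 685-2, 697-1 and 697-3 (1.04, 1.06 and 1.48 CPM), libraries of the group in which it was highest. Its fold change and test are therefore not given. The call of Phex was lost with the suffix covariate and without the library labelled WT 685-2. Phex had 15 to 50 reads in WT and 0 to 13 in Sp3-/- libraries. No gene of the 5 lists was called in Sp3+/- against WT.

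In Sp3-/- against Sp3+/- cells, 1 Krüppel-like factor was called higher and 3 lower. The corresponding counts were 2 and 1 for other binders, 1 and 2 for partners, 1 and 2 for targets, and 0 and 0 for osteoblast genes. The list sizes tested were 14, 11, 15, 15 and 4, and 13% of all genes were called higher and 12.5% lower in this comparison. Genes of these lists called against WT, Phex left out, had log2 fold changes between -2.20 (Fgf10) and 0.85 (Wt1) there. In Sp3+/- against WT theirs lay between -0.36 (Fgf10) and 0.58 (Wt1).

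**Figure D5:**
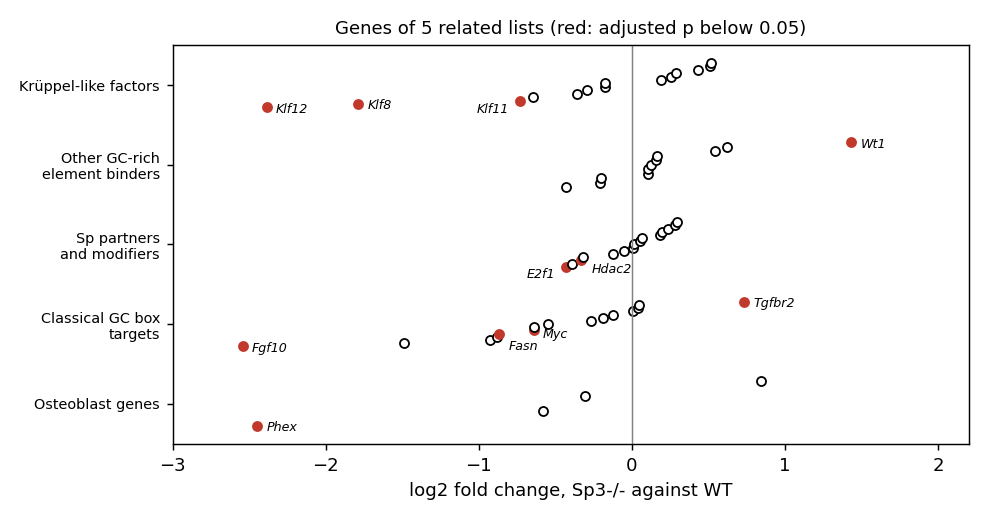
Log2 fold changes in Sp3-/- against WT for the tested genes of 5 related lists, 1 point per gene. Red points have an edgeR adjusted p below 0.05. Phex, among them, passed the filter only through WT libraries. Called genes of the lists lie on the lower side except Wt1 (1.44) and Tgfbr2 (0.73), the gene called higher among the targets. Of all genes, 18.5% were called.

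The genes whose levels followed Sp3 most closely over the 11 libraries were found among 11203 genes with a mean above 2 log2 CPM. Tgfb2, a secreted growth factor, had the highest Pearson r (0.984), followed by Rcn1 (0.976) and Cox20 (0.976). Actr8 (-0.983), Neu1 (-0.966) and Vill (-0.964) had the lowest. Tgfb2 measured 6.10 to 6.58 log2 CPM in WT, 6.09 to 6.41 in Sp3+/- and 4.59 to 4.83 in Sp3-/- libraries. For Sp1 the highest were Ap4e1 (0.952), Nipbl (0.948) and Vhl (0.935), and the lowest Ccdc85b (-0.958), Mlf2 (-0.947) and Tceb2 (-0.940). These correlations describe libraries that differ in genotype, depth and suffix together.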

How the data were processed

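Single-end reads of 50 bp from TruSeq libraries were checked by the authors with FastQC 0.10.1, aligned with STAR 2.4.5a to mm10 and assigned to genes with HTSeq, and the deposited tables hold the resulting raw count per gene symbol for each library. The 5 tallies of reads outside genes (38.4 to 40.9% of a library, of which ambiguous reads were at most 0.436% of the library) were left out. The annotation and the strand setting of the counting are not given in the sources used here.

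Genotypes were taken from the labels. Genes with more than 1 CPM in at least 1 library were tested with edgeR 4.0.16 in R 4.3.3 (TMM, robust quasi-likelihood fit, Benjamini-Hochberg adjustment over all genes). Sp3-/- against WT used their 7 libraries, and comparisons with Sp3+/- all 11. RPKM used exon unions from GENCODE vM39 on GRCm39, which may differ from the annotation counted. Promoters and coordinates came from RefSeq on GRCm38.p6. Alternatives were DESeq2 1.42.0, limma 3.58.1, other scalings and filters, covariates and left-out libraries. The pipeline was tested on simulated data.

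The members and gene lists were chosen with earlier results of these data known. All 8 members are named, with at most the 3 largest called changes per list and the 3 genes with the highest and lowest correlation with Sp3 or Sp1. Exceptions are stated. From the list of GC box targets, 1 gene was left out and is not reported.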

Additional observations from a re-analysis of the deposited data

How the results depend on the processing

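Sp3 was called lower in Sp3-/- than in WT cells in 17 of 18 alternative fits (log2 fold changes -2.43 to -2.16) and lower than in Sp3+/- cells in 21 of 21 (-1.88 to -1.73). The exception was the fit on libraries without a title suffix (-2.43, edgeR adjusted p = 0.2929), in which 0 genes were called and only 1 WT library entered. Sp3 in Sp3+/- against WT was called in 0 of 21 alternatives (-0.62 to -0.35), and Sp1 in none of its fits (0.19 to 0.36 in Sp3-/- against WT, adjusted p from 0.0624 to 0.5598). Fits of Sp7 are not given, since it passed the filter only through Sp3-/- 697-5.

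The number of genes called in Sp3-/- against WT was 2599, and became 4297 with DESeq2. It was 3977 with all 11 libraries in a single fit, and 1329 when the suffix was added to that fit as a covariate. With the first title number as a replicate block, in which WT 468-4 stood alone, the number was 4031. It ran from 282, without Sp3-/- 697-2, to 4179, without WT 468-4, and was 893, 766 and 802 without the library labelled WT 685-2, WT 697-1 or WT 697-3 and 1408 without Sp3-/- 697-5. In Sp3-/- against Sp3+/- 3607 genes were called, 763 with the suffix covariate, and 1490 (without Sp3-/- 697-2) to 4245 with libraries left out. Scaling by the upper quartile gave 983 higher and 1671 lower against WT, beside 1229 and 1370 with TMM, and 1436 and 2171 against Sp3+/-, beside 1838 and 1769. Without Sp3-/- 697-2, the calls on the 5 gene lists against WT were 1 target and 1 other binder, both higher. Libraries with the same first title number and another genotype had correlated deviations of -0.617 to 0.344 (median 0.0993), over 0.1 in 7 of 14 pairs. Among pairs with another number and another genotype, 10 of 26 were over 0.1 (median -0.0441). These values do not decide whether the numbers pair libraries, and the main fits did not use them. The block changed no call of a member.

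Members that were not called changed sign in places. Sp4 in Sp3-/- against Sp3+/- (-0.01) was 0.00241 with DESeq2, 0.19 with the suffix covariate and -0.066 to 0.060 with libraries left out. In Sp3+/- against WT, Sp6 (0.10) was -0.032 by limma-voom, -0.040 with a consensus correlation and -0.20 to 0.45 with libraries left out. In the same comparison, small values of list genes also reversed. Klf8 (-0.06) was 0.076 by limma-voom without and with the correlation, 0.0068 with the block, 0.034 with the suffix and -0.27 to 0.049 with libraries left out. Fgf10 (-0.36) was 0.025 and 0.033 by limma-voom without and with the correlation. Hdac2 (-0.05) was 0.0070 with the suffix and -0.091 to 0.0010, Klf11 (-0.15) -0.23 to 0.019 and Fasn (-0.04) -0.17 to 0.044 with libraries left out. By the longest transcript, WT levels of Sp2 and Sp3 were 5.25 and 17.8 RPKM. The cause of these changes was not tested.

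Depth limited Sp5, Sp7 and Sp8, which had at most 12 reads in any library, and differences of these members were not measurable with precision. Every fit that left out a library kept at least 2 libraries per genotype.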
